A study of Homo sapiens with 6 samples.

Results

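The mitochondrial ribosomal protein genes were described in RNA sequencing of human cells labelled THP-1, a line derived from a monocytic leukaemia. They were taken by name: every protein-coding gene of the deposited table whose symbol is MRPL or MRPS followed by a number and, where present, a letter from A to C. This gave 78 of the 28847 genes in the table, 49 named for the large subunit (MRPL) and 29 for the small subunit (MRPS). The control group held 3 libraries labelled THP-1 alone. The RBP4 group held 3 libraries labelled THP-1 with RBP4. RBP4 is retinol-binding protein 4, the plasma carrier of vitamin A, and the series' text names recombinant human RBP4 protein given to a model of M0 (unpolarised) macrophages. The labels give no dose, no time and no differentiating agent. Nothing in the labels says that the libraries came from separate cultures, so the p-values measure the spread between these libraries only, which may be technical.

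Mitochondria keep a small genome and a ribosome of their own, which makes the membrane-bound core subunits of the respiratory chain and of ATP synthase. The RNAs of that ribosome are encoded in the mitochondrial genome, but every one of its proteins is encoded in the nucleus, made in the cytosol and imported. Some of these proteins have counterparts in bacterial ribosomes, and others are specific to mitochondria. The large subunit forms the peptide bond and the exit tunnel, and the small subunit reads the messenger RNA.

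Values are normalized reads, that is, read counts divided by a size factor of the library. The libraries held 15202000 to 16420517 reads assigned to genes, and 23701 to 23996 genes had a read in the control libraries against 24620 to 24727 in the RBP4 libraries. Markers were checked against the labelled cell type. Of 17 monocyte and macrophage markers, 2 reached 10 CPM (reads scaled to the total of the library) in all 6 libraries. CD14, the lipopolysaccharide co-receptor, averaged 1.39 normalized reads in the control libraries and had no read in the RBP4 libraries, where 0 reads allow up to 0.194 CPM (3 reads, counting error only). CSF1R, the macrophage growth factor receptor, averaged 2.10 and 2.22. The 2 markers that reached 10 CPM were SPI1 (638 normalized reads in control and 720 in RBP4 libraries) and CD33 (856 and 728). LYZ (182 and 255) and ITGAM (104 and 168) were also expressed, at lower levels. Of the 6 monocyte and macrophage markers that could be tested, SPI1, LYZ and ITGAM were raised and CD33 was lowered. Of 17 erythroid markers, 16 reached 10 CPM in all 6 libraries. GATA1, the erythroid and megakaryocytic transcription factor, averaged 3170 normalized reads in control and 3238 in RBP4 libraries. Most monocyte markers thus had few or no reads and most erythroid markers reached 10 CPM, which goes against a monocytic identity. SPI1, CD33, LYZ and ITGAM were expressed all the same, and the groups are called here by their labels only. Of the 17 erythroid markers, 6 were raised and 6 lowered (median log2 fold change 0.03). Their sum stood at 2701 to 2711 CPM in control and 2418 to 2493 CPM in RBP4 libraries, but TFRC, the transferrin receptor, which dividing cells of many types also express, carried this fall, from 892 to 919 CPM to 472 to 500 CPM. The other 16 summed to 1791 to 1818 CPM in control and 1946 to 1993 CPM in RBP4 libraries, and the monocyte markers to 109 to 117 and 121 to 130 CPM. The part of these shifts in the results below was not tested. On the first principal component, with 63.1% of the variance, the control and RBP4 libraries separated.

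Of the 77 mitochondrial ribosomal protein genes that could be tested, 65 had a negative fold change, most of them small, and the large and the small subunit had like shares of lowered genes. Of the 49 MRPL genes, 28 were lowered and 2 were raised, and of the 28 MRPS genes that could be tested 16 were lowered and none was raised (limma on log2 values, adjusted p under 0.05). The share lowered was 57.1% in each subunit. Over all 15676 genes tested, 50.6% were called, 26.1% lowered and 24.5% raised, and over the 12230 protein-coding genes tested 56% were called, 29.4% lowered and 26.6% raised. Among 3850 protein-coding genes with a mean level between the quartiles of the mitochondrial ribosomal genes, 57.5% were called, with 33.1% lowered and 24.5% raised. Genes of the mitochondrial ribosome were thus called about as often as others of their level, and the calls went mostly one way. For 47 of the 77 genes the values of control and RBP4 libraries were fully apart, against 56.2% of all genes tested. The median log2 fold change was -0.171 for MRPL and -0.143 for MRPS, against -0.0021 for all genes tested. In bulk samples such as these, fewer cells of a type and less RNA per cell cannot be told apart.

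The size of these counts depended on how libraries were scaled. When every library was brought to the same total of reads instead of the deposited size factors, 19 MRPL and 9 MRPS genes were lowered, 4 MRPL and 1 MRPS genes were raised, and 19.1% of all genes were lowered and 30.8% raised. The medians were then -0.10 and -0.075, and the median over all genes moved up by 0.068. Among the 44 lowered genes, 19 MRPL and 8 MRPS genes were lowered under every one of 17 alternatives run, and 28 and 16 kept a negative fold change in all of them.

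**Figure D1:**
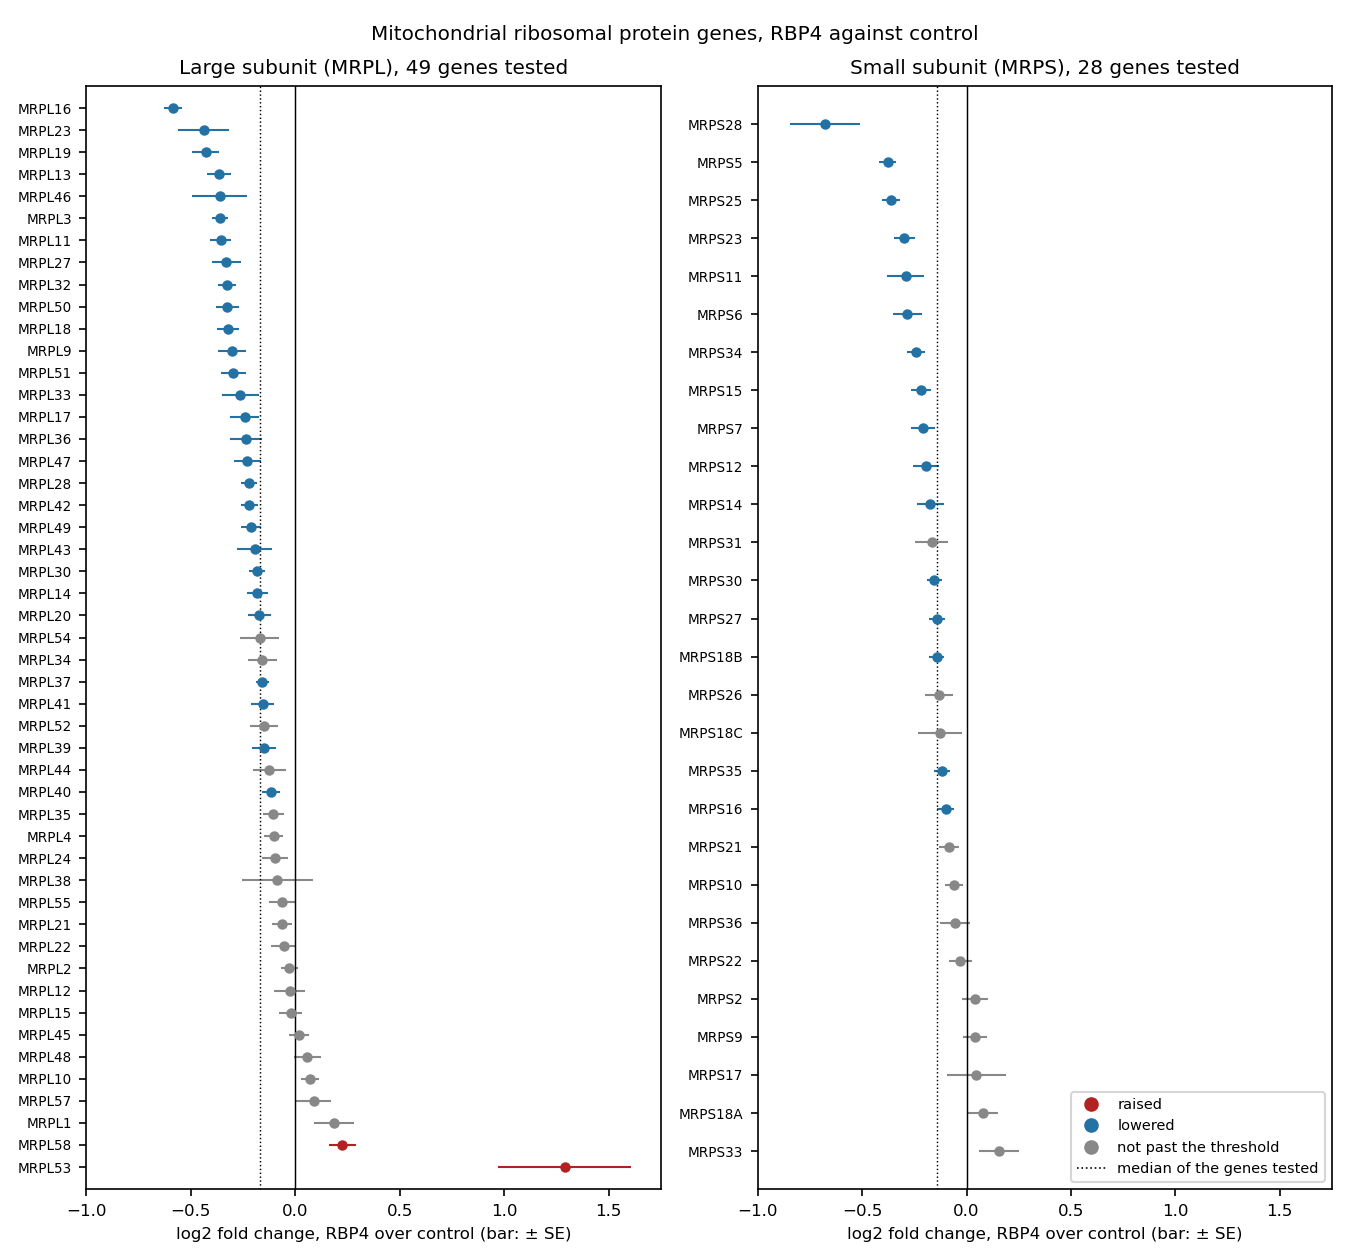
Log2 fold change of each tested mitochondrial ribosomal protein gene, RBP4 over control, with its standard error (bars), ordered within the large (left) and small (right) subunit. Points in blue were lowered and points in red raised at an adjusted p under 0.05, grey points were not past it, and the dotted lines mark the medians of -0.171 and -0.143. MRPL53 stands apart at 1.29.

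Summed over all 78 genes, the control libraries held 73314, 73663 and 74434 normalized reads, and the RBP4 libraries 64456, 65361 and 66161. Every RBP4 library was below every control library, and the mean of the sum fell by 11.5%. As a share of all reads, the genes took 0.452%, 0.453% and 0.457% of the control libraries and 0.417%, 0.422% and 0.426% of the RBP4 libraries, a mean that fell by 7.19%. The share does not depend on the size factors. It moved beside the share of reads from all genes of the mitochondrial genome, which went from 5.90 to 6.10% in control to 7.58 to 7.69% in RBP4 libraries. The protein genes among them are described at the end. The part of that shift was not tested.

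The balance between the subunits shifted little. Summed normalized reads per kilobase of exon of MRPL genes, divided by those of MRPS genes, gave 1.72, 1.76 and 1.73 in the control libraries and 1.71, 1.69 and 1.70 in the RBP4 libraries. The groups did not overlap, with a ratio of means of 0.980, but the gap between the highest RBP4 and the lowest control library was smaller than the range within either group. With the subunits set by structure (MRPS18A and MRPS30 counted as large, MRPS36 left out and 5 further proteins added) the ranges overlapped, at 1.599 to 1.632 in control and 1.587 to 1.605 in RBP4 libraries. Taking medians over genes in place of sums turned the direction, at 1.07 to 1.09 in control and 1.09 to 1.15 in RBP4 libraries. No shift of one subunit against the other held across these measures.

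**Figure D2:**
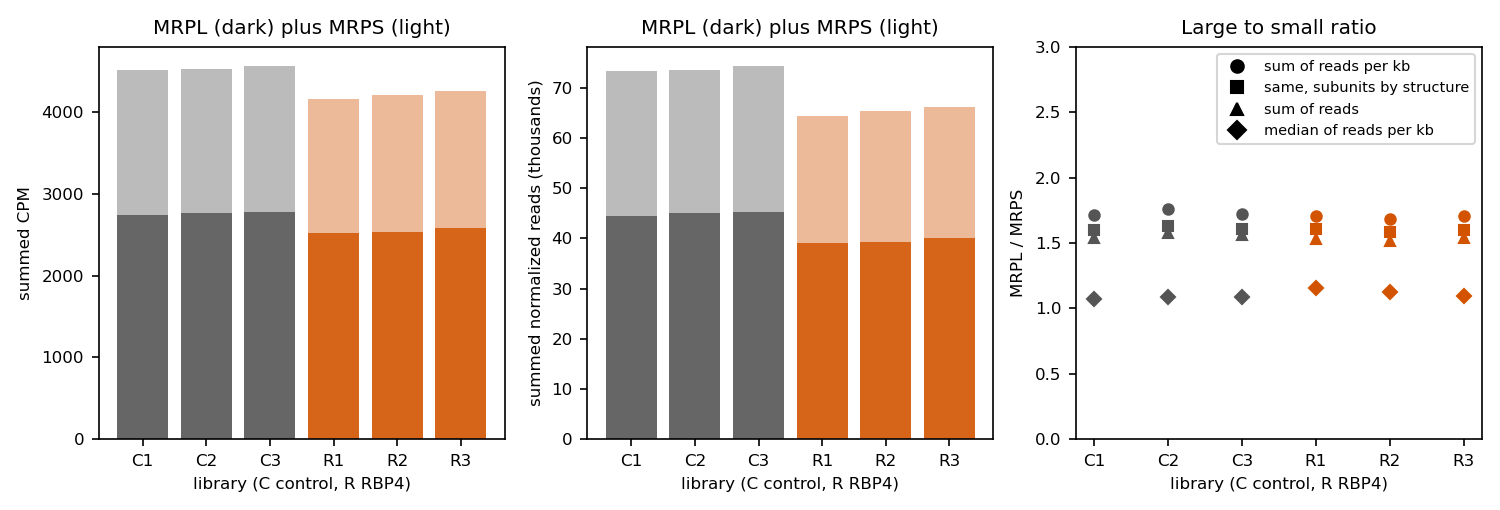
Mitochondrial ribosomal protein genes in each library (C, control; R, RBP4). The left and middle panels stack the MRPL (dark) and MRPS (light) sums in CPM and in normalized reads, and every RBP4 bar is below every control bar. The right panel gives the large to small ratio by 4 measures, of which the median (diamonds) is higher in the RBP4 libraries and the sum per kilobase (circles) is lower.

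Genes with a bacterial counterpart and mitochondria-specific genes were lowered at like shares. The split was set by hand from the numbers in the protein names and is less sure for some genes. MRPS18A, MRPS18B and MRPS18C were all counted with bacterial S18, though MRPS18A sits in the large subunit in structures. MRPS28 was taken as related to bacterial S1, MRPL47 to L29, MRPL55 to L31 and MRPS24 to S3. In the large subunit these were 18 of 30 genes with a bacterial homolog (median log2 fold change -0.20) and 10 of 19 mitochondria-specific genes (-0.15). In the small subunit they were 10 of 17 tested (-0.14) and 6 of 11 (-0.14). Both raised genes, MRPL53 and MRPL58, are mitochondria-specific. MRPL53 entered the test through its RBP4 values, and MRPL58 lost its call without RBP4 library 2 (adjusted p 0.081). No trait of raised genes is read from them.

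The genes are scattered over the genome, with no more than 8 on any chromosome (1, 2 and 17), and their promoters were read from the RefSeq table of GRCh38.p14, with 250 bases before and 50 bases after the start site, for the 69 of 78 genes that the table matched by symbol. The ETS motif CCGGAAG, bound by GABP among other ETS factors, stood on either strand in 29 of the 69 promoters (42%), against 16.9% of 12058 protein-coding promoters and 10.3% of all 35093 promoters in the table. The YY1 motif AAGATGG was found in 33.3% of the 69, against 7.1% of protein-coding promoters. With the bases before the start only, these shares were 33.3% against 14.1% for ETS and 10.1% against 3.48% for YY1. The NRF1 motif was found in 11.6% against 10.2%. The E box CACGTG was found in 8.7% against 9.69%, the CCAAT box in 29% against 36.2%, and the ATF4 motifs TTGCATCA or TGATGNAAT in 1.45% against 0.879%. Each motif was counted on its own, whether or not it overlapped another.

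The ETS motif stood in 15 of 41 promoters of lowered genes and in 12 of 25 promoters of genes not past the threshold. For the YY1 motif these counts were 16 and 6, and for the CCAAT box 13 and 7. For NRF1 they were 4 and 4, for the E box 3 and 3, and for the ATF4 motifs 0 and 1. No motif was tested against the calls. The ETS motif was found in 17 of 42 MRPL and 12 of 27 MRPS promoters. A match is a run of letters and not a site shown to be bound. The stretches below are shown because they come from lowered (MRPL16, MRPL3, MRPL17), raised (MRPL58) and uncalled (MRPS18A) genes. Each runs 5′ to 3′ on the strand of the gene, ends where the GENCODE gene model begins, and has the motif in capitals. They are a CCAAT box read on the other strand for MRPL16 (chr11:59810873-59811022, minus strand), ETS motifs for MRPL3 (chr3:131502984-131503133, minus strand), MRPL58 (chr17:75012520-75012669, plus strand) and MRPS18A (chr6:43687792-43687941, minus strand), and NRF1 for MRPL17 (chr11:6683402-6683551, minus strand).
MRPL16: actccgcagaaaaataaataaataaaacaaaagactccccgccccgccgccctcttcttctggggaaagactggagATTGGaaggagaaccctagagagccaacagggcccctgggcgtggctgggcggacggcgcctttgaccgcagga
MRPL3: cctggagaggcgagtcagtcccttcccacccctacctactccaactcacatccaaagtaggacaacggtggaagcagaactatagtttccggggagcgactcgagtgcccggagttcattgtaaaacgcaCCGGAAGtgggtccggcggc
MRPL17: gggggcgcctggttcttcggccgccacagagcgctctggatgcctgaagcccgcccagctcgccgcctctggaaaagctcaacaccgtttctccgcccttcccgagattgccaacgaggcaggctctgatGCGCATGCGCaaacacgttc
MRPL58: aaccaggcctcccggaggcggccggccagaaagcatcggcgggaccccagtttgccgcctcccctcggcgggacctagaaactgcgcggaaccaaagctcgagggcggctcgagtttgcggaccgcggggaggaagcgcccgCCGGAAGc
MRPS18A: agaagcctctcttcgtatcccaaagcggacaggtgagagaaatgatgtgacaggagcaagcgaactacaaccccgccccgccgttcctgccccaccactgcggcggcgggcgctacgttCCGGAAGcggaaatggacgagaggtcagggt

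The same ETS letters stand close to the start of the gene in MRPL58, which was raised, and in MRPL3, which was lowered. MRPL16, also lowered, has an ETS match on the other strand too, which begins at -6 from the RefSeq start. This match lies outside the printed stretch of MRPL16, which stops at -95.

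In the large subunit, MRPL16 fell most. MRPL16 (ENSG00000166902, chr11:59806135-59810872 in GRCh38) is the counterpart of the bacterial protein beside the tRNA sites near the peptidyl transferase centre. It had 1963, 2023 and 2081 normalized reads in the control libraries and 1324, 1318 and 1400.2 in the RBP4 libraries. It fell by 33.4%, or by 0.59 ± 0.041 on the log2 scale (SE, adjusted p 3.65e-20). MRPL3 (chr3:131462212-131502983), a core protein that reaches toward the same centre, had 2145, 2223 and 2349 normalized reads in control and 1672, 1795 and 1763 in RBP4 libraries (-0.36 ± 0.039, adjusted p 3.54e-12). In both genes the lowest control library lay well above the highest RBP4 library.

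MRPL19, whose bacterial counterpart sits at the interface of the subunits, had 1183, 1352 and 1312 normalized reads in control and 984, 845 and 1033 in RBP4 libraries (-0.43 ± 0.063, adjusted p 6.03e-06). MRPL13, the counterpart of another core protein, had 807, 849 and 958 in control and 682, 635 and 709 in RBP4 libraries (-0.36 ± 0.058, adjusted p 3.27e-07). MRPL23, at the mouth of the exit tunnel, had 176, 154 and 193 in control and 135, 116 and 133 in RBP4 libraries (-0.44 ± 0.12, adjusted p 0.00166). None of the 3 had overlapping groups, but MRPL23 rested on the fewest reads and had the widest error.

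The large subunit had 2 raised genes. MRPL58, a peptidyl-tRNA hydrolase that frees stalled mitochondrial ribosomes and is also built into the large subunit, had 534, 579.6 and 581 normalized reads in control and 649.6, 738 and 601 in RBP4 libraries (0.23 ± 0.064, adjusted p 0.00247). All RBP4 libraries were above all control libraries, but without RBP4 library 2 the fold change was 0.146 with an adjusted p of 0.081. MRPL53 had 9.31, 12.1 and 11.8 normalized reads in control and 29.97, 28.3 and 26.7 in RBP4 libraries (1.29 ± 0.32, adjusted p 0.000524). It entered the test through its RBP4 values, and 45.2% of its exon bases are shared with CCDC142 on the same strand, so its reads cannot be told from those of that gene. Over the large subunit, the 28 lowered genes spanned log2 fold changes of -0.59 to -0.12, and the 19 genes not past the threshold -0.17 to 0.18.

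**Figure D3:**
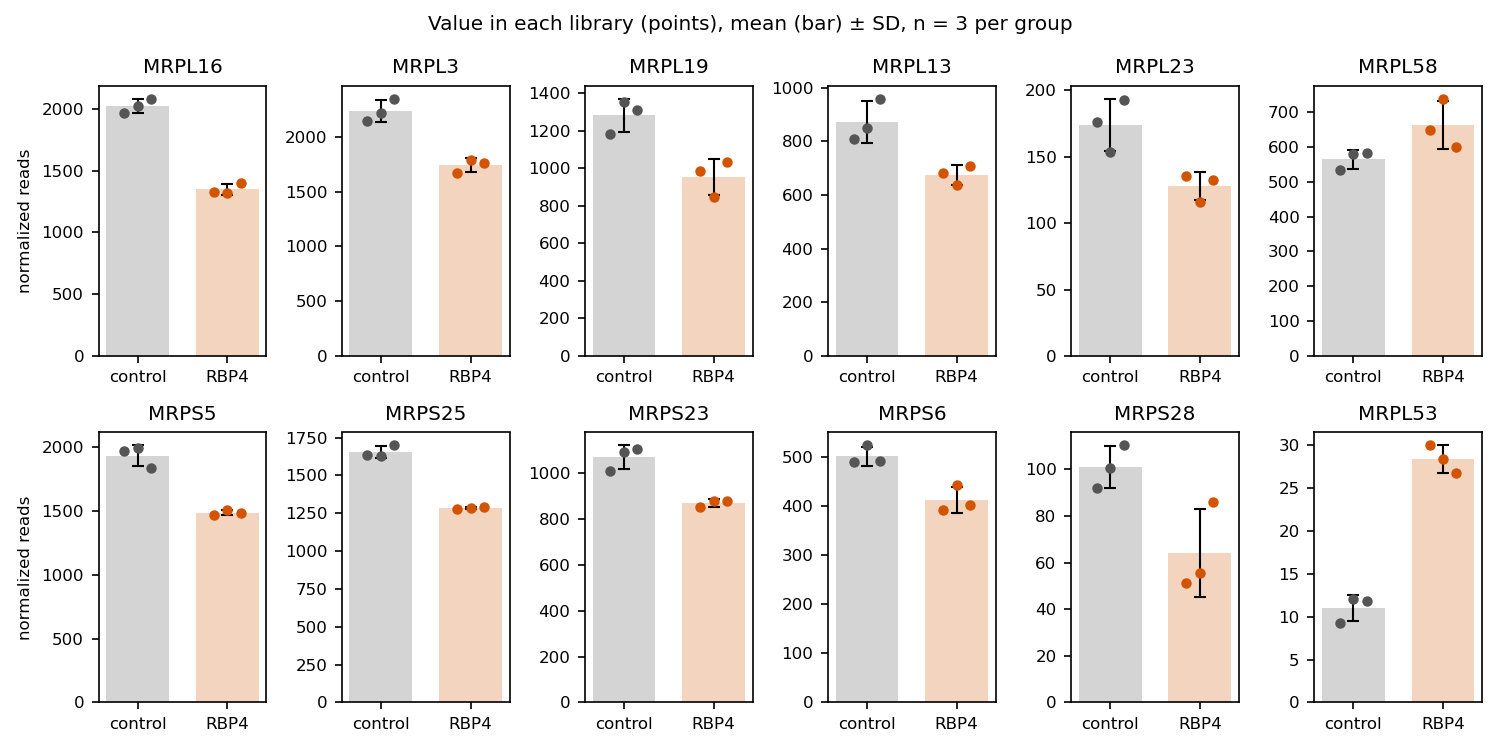
Normalized reads in each library (points), with the group mean (bars) and SD (error bars, n = 3), of 12 mitochondrial ribosomal protein genes: the 5 most lowered of each subunit among those whose groups do not overlap, and the 2 raised. Each vertical axis starts at 0 and has its own scale. The genes were picked for groups that are apart, so that this is no finding, and MRPL46 and MRPS11 were left out because theirs overlap. MRPL53 reaches no more than 29.97.

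Within the large subunit, functional neighbourhoods did not move as blocks. The stalk list held 4 proteins, among them those of the L7/L12 stalk, which recruits translation factors. Only MRPL11 of the 4 was lowered, with 1077, 1059.5 and 1012 normalized reads in control and 832, 823 and 803 in RBP4 libraries (-0.36 ± 0.051, adjusted p 1.28e-08). MRPL10, the base of the L7/L12 stalk, had 1280.2, 1306 and 1334 in control and 1369.7, 1414 and 1332 in RBP4 libraries (0.07, adjusted p 0.185). MRPL1 of the other stalk had 254, 202 and 245 in control and 245, 266 and 283 in RBP4 libraries (0.18, adjusted p 0.104). With libraries scaled to total reads MRPL1 and MRPL10 passed as raised, with adjusted p of 0.0247 and 0.00683, and MRPL1 also did so without control library 1 (adjusted p 0.0469). MRPL12, the stalk protein that contacts the factors, stood at 392 ± 34.6 in control and 384 ± 9.67 in RBP4 libraries (SD), and 68.2% of its exon bases overlap another annotated gene.

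Around the exit tunnel, through which the new chain reaches the inner membrane, 2 of 5 genes were lowered: MRPL23, given above, and MRPL47. MRPL47 had 533, 569.5 and 580.4 normalized reads in control and 471, 499.5 and 465 in RBP4 libraries (-0.23 ± 0.065, adjusted p 0.00235). MRPL45, which holds the ribosome to the inner membrane, stood at 1212 ± 90.1 in control and 1226 ± 21.9 in RBP4 libraries (0.02, adjusted p 0.757). MRPL22 and MRPL24, proteins of the tunnel wall and rim, had fold changes of -0.06 and -0.10 and were not past the threshold either. MRPL45 has a pseudogene in the table with 8.12% of its reads, which reads could be split with.

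In the central protuberance, the ridge at the top of the large subunit, 4 of 6 genes were lowered. MRPL18 had 1033, 1025 and 983 normalized reads in control and 777, 833 and 821 in RBP4 libraries (-0.32 ± 0.051, adjusted p 2.15e-07), and MRPL27 had 477, 536 and 574 against 427, 419 and 411 (-0.33 ± 0.07, adjusted p 5.08e-05). In both the groups were apart. MRPL40 fell by 7.75% (adjusted p 0.0214). MRPL46 had 179, 143 and 161 in control and 99.6, 123 and 157 in RBP4 libraries (-0.36 ± 0.13, adjusted p 0.0194), and its groups overlapped. Its adjusted p was 0.108 without control library 1 and 0.236 without RBP4 library 1, and that of MRPL40 was 0.108 without control library 2 and 0.135 without RBP4 library 3. MRPL40 and MRPL46 were also not past the threshold with libraries scaled to total reads or with DESeq2, so that 2 of 6 were lowered there. MRPL38 stood at 76.0 ± 14.4 and 70.7 ± 2.61, and MRPL48 at 545 ± 36.5 and 567 ± 11.5.

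In the small subunit, MRPS28 had the largest fold change and some of the fewest reads. It had 92.1, 101 and 110.3 normalized reads in control and 51.2, 55.7 and 85.8 in RBP4 libraries (-0.68 ± 0.17, adjusted p 0.000551). The groups did not overlap, but RBP4 library 3 lay near the controls, and 35.8% of the exon bases are shared with another annotated gene. MRPS5 (chr2:95087207-95149434), the counterpart of a bacterial protein at the messenger RNA entry, had 1966, 1990.2 and 1839 in control and 1467, 1509.8 and 1482 in RBP4 libraries (-0.38 ± 0.041, adjusted p 2.33e-12). MRPS5 thus moved by much less than MRPS28 with a far smaller error.

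MRPS25 and MRPS23 are mitochondria-specific proteins. MRPS25 (chr3:15042460-15065335) had 1632, 1627 and 1698 normalized reads in control and 1278, 1286 and 1293 in RBP4 libraries (-0.36 ± 0.042, adjusted p 3.51e-11). MRPS23 (chr17:57834781-57850056) had 1010.1, 1095 and 1105 against 852, 880.0 and 878 (-0.30 ± 0.05, adjusted p 9.14e-07). In both, the RBP4 libraries lay close together and well below the controls, and MRPS25 shares 22.2% of its exon bases with other genes. MRPS6, the counterpart of bacterial S6, had 491, 524 and 491 against 392, 443 and 403 (-0.28 ± 0.07, adjusted p 0.000471). Over the small subunit, the 16 lowered genes spanned -0.68 to -0.10 and the 12 genes not past the threshold -0.17 to 0.15.

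Mammals carry 3 genes related to the bacterial small subunit protein S18. MRPS18B, the most abundant of them, had 2383, 2274 and 2358 normalized reads in control and 2048, 2154 and 2153 in RBP4 libraries (-0.14 ± 0.037, adjusted p 0.000806), and was not past the threshold with libraries scaled to total reads (adjusted p 0.085). MRPS18A, which sits in the large subunit in structures, had 402, 396 and 391 in control and 409.9, 418 and 428 in RBP4 libraries (0.08, adjusted p 0.369): the groups were apart by a small step that did not pass. MRPS18C had 198, 241 and 230.2 against 233, 176 and 206 (-0.13, adjusted p 0.321), with groups that overlapped. Exons of MRPS18A and MRPS18C overlap other genes over 47% and 40.2% of their bases.

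A few names do not follow the place of the protein. MRPS30, which structures also place in the large subunit, had 2201, 2188 and 2244 normalized reads in control and 2043, 1990.5 and 1932 in RBP4 libraries (-0.15 ± 0.037, adjusted p 0.000386). With libraries scaled to total reads it was not past the threshold (-0.085, adjusted p 0.0509). MRPS36, a subunit of the 2-oxoglutarate dehydrogenase complex of the citric acid cycle, had 411, 445 and 426 against 388, 409 and 438 (-0.06, adjusted p 0.547). MRPS24, the counterpart of bacterial S3, was too low to test, with 12.4, 5.03 and 1.07 normalized reads in control and 3.87, 2.83 and 6.68 in RBP4 libraries. A readthrough gene, URGCP-MRPS24, covers 23.2% of its exon bases.

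Levels varied far more among these genes than between the groups. Per kilobase of exon, the MRPL genes ran from 14.7 (MRPL53) to 1217 (MRPL37) normalized reads, with a median of 303. The MRPS genes ran from 2.03 (MRPS24) to 1589 (MRPS34), with a median of 274. Exon length here counts all exons annotated to a gene, which can exceed the length of its message. MRPL53 and MRPS24, the lowest, also share exon bases with another gene on the same strand. The part of annotation in this spread was not tested. MRPL37, a mitochondria-specific protein, had 3196, 3245 and 3375 normalized reads in control and 2948, 2934 and 2919 in RBP4 libraries, and it fell by 10.3% (-0.16, adjusted p 4.72e-05), or by 0.09 on the log2 scale with total-read scaling (adjusted p 0.02). MRPL14, an interface protein of the large subunit and the next most abundant per kilobase there, had 1302, 1212 and 1109 against 996, 1075 and 1122, with overlapping groups (-0.18, adjusted p 0.00273), and with libraries scaled to total reads it was not past the threshold (-0.11, adjusted p 0.0656). MRPS34, a mitochondria-specific protein, had 1945, 1811 and 1905 against 1499, 1722 and 1577 (-0.24 ± 0.043, adjusted p 3.40e-06). Across the 77 genes tested, the log2 fold change against the log2 mean level had a Pearson correlation of -0.345. The Spearman correlation was -0.125, and both only describe genes of the same libraries. MRPL53 enters both with the lowest mean level (19.7) and the highest fold change (1.29). Neither was computed without it.

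**Figure D4:**
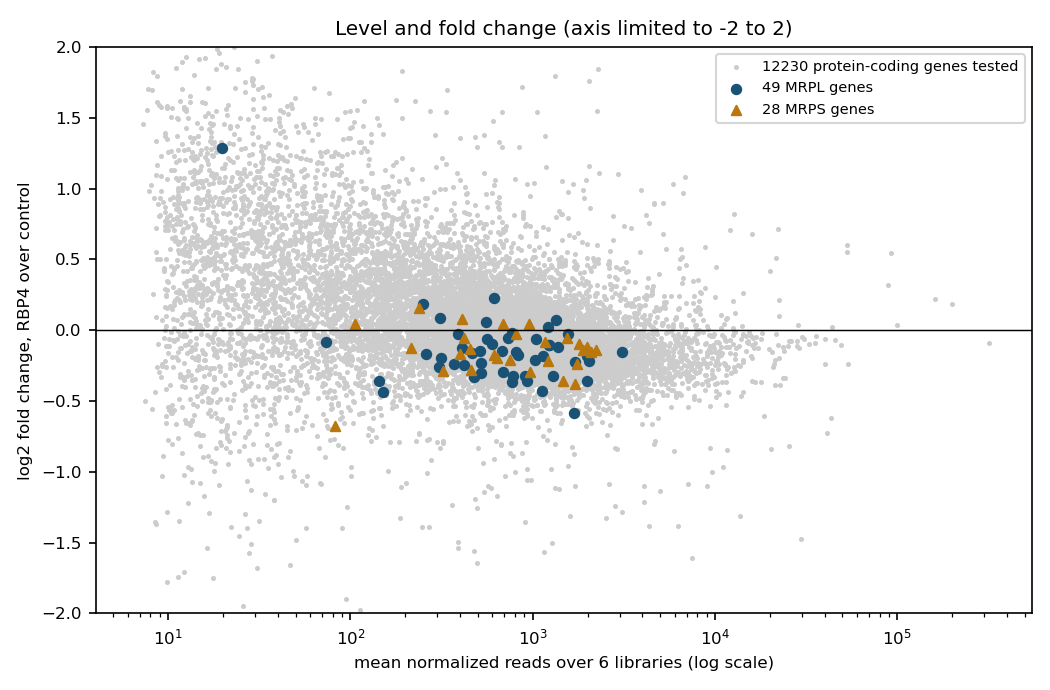
Log2 fold change (vertical axis, limited to -2 to 2) against the mean normalized reads over the 6 libraries (log axis) for the 12230 protein-coding genes tested (grey), the 49 MRPL genes (circles) and the 28 MRPS genes (triangles). Most mitochondrial ribosomal protein genes lie just below 0 at levels from 100 to 3000, where the grey points spread to both sides. Their medians are -0.171 and -0.143.

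Counts were also taken with overlapping genes set apart. The kit does not mark the strand, so reads of overlapping genes cannot be told apart. Among the 52 genes that share under 10% of their exon bases, 30 were lowered and 1 raised, with a median of -0.15. Among 25 genes that share 10 to 50%, 14 of 24 tested were lowered and 1 raised. The table also holds 20 pseudogenes of 15 of the genes, and 4 of the 20 had more than 5% of the level of their parent.

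Many of these genes share a start region with a neighbour on the opposite strand. Such a head-to-head neighbour was annotated for 23 genes, and for 15 lowered genes it was tested: 7 neighbours were lowered, 5 raised and 3 not past the threshold. MRPL46 and MRPS11 are each other's neighbour and both stand in that count. Among the 13 neighbours outside the family 5 were lowered and 5 raised, where 26.1% of all genes tested were lowered and 24.5% raised. For protein-coding genes these shares were 29.4% and 26.6%. DNAJC9-AS1 and MRPS30-DT, among the raised neighbours, are antisense genes, and the other raised and all the lowered ones are protein-coding. The neighbours named here were chosen after their values were seen. MRPL46 and MRPS11 start 34 bases apart on chromosome 15, and both were lowered (-0.36 and -0.29), though each lost its call without RBP4 library 1 (adjusted p 0.236 and 0.137). MRPL18 and TCP1, a subunit of the cytosolic chaperonin, start 63 bases apart, and TCP1 was lowered by the same measure (-0.33, adjusted p 1.11e-17). MRPL50 and ZNF189, which encodes a zinc finger protein, went opposite ways: MRPL50 was lowered (-0.32), while ZNF189 had 131, 118 and 108 normalized reads in control and 224, 266 and 254 in RBP4 libraries (1.05, adjusted p 1.85e-12).

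The proteins of the mitochondrial ribosome that carry other names moved the same way: 4 of 5 were lowered, with a median log2 fold change of -0.26. PTCD3, an RNA-binding protein of the small subunit, had 3514, 3599 and 3663 normalized reads in control and 3030.4, 2971 and 2999.8 in RBP4 libraries (-0.26 ± 0.032, adjusted p 2.59e-10). CHCHD1, also of the small subunit, had 585, 572 and 568 against 386, 431 and 472 (-0.42 ± 0.069, adjusted p 3.18e-07). GADD45GIP1, of the large subunit, fell from 1009 ± 10.7 to 789 ± 44.8 (SD) and AURKAIP1, of the small subunit, from 1366 ± 38.9 to 1190.1 ± 29.8. DAP3, the GTP-binding protein of the small subunit, stood at 4590.0 ± 102 and 4399 ± 53.5 (-0.06, adjusted p 0.0802).

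Genes that assemble or serve this ribosome were read against the same 26.1% lowered and 24.5% raised over all genes tested. With libraries scaled to total reads these shares were 19.1% and 30.8%. Of 25 assembly factors, 11 were lowered (44%) and 5 raised (20%), with a median of -0.12. The share raised lay near that of all genes. In this list, with libraries scaled to total reads 7 were lowered, and with DESeq2 6 were lowered and 3 raised. Without RBP4 library 3 the lowered count was 7, and without RBP4 library 1 the raised count was 3. The GTPase NOA1 rose from 912 ± 56.4 to 1102 ± 32.3 normalized reads (adjusted p 4.67e-06) and the RNA helicase DDX28 from 202 ± 10.1 to 264 ± 4.85 (adjusted p 0.000406). The helicase DHX30 fell from 2621 ± 98.7 to 2227 ± 39.7 (adjusted p 9.28e-08) and RCC1L from 1792 ± 24.8 to 1488 ± 47.1 (adjusted p 6.71e-08). Assembly factors thus differed in direction even within the helicases.

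Of 15 translation factors, 6 were lowered and 1 was raised (median -0.10). With libraries scaled to total reads 5 of the 15 were raised, a share near the 30.8% of all genes at that scaling. Without control library 1 the raised count was 3, and without control library 2 or 3 it was 2. TUFM, the mitochondrial elongation factor Tu, had 7289, 6962 and 6751 normalized reads in control and 5922, 6194 and 5971 in RBP4 libraries (-0.22 ± 0.028, adjusted p 1.66e-09). TACO1, which activates translation of the MT-CO1 messenger RNA, was the gene that rose, from 447 ± 18.4 to 545 ± 27.7 (adjusted p 0.000234). Of 20 mitochondrial tRNA synthetases, 9 were lowered and 2 raised (median -0.17). With total-read scaling 4 of the 20 were lowered, a share near the 19.1% of all genes at that scaling. IARS2, which charges isoleucine, fell from 5412 ± 146 to 4367 ± 15.0 (adjusted p 1.94e-14), while AARS2, which charges alanine, rose from 654 ± 30.3 to 894 ± 19.4 (adjusted p 1.58e-10).

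Of 16 genes of mitochondrial transcription and RNA stability, 12 were lowered and none raised (median -0.15), and with total-read scaling 6 were lowered. TFB2M, a transcription factor that opens mitochondrial promoters, had 924, 959.9 and 927 normalized reads in control and 677, 672 and 653 in RBP4 libraries (-0.49 ± 0.054, adjusted p 4.76e-12). TBRG4, an RNA-binding protein of the FASTK family, had 3659, 3446 and 3519 against 2563, 2658 and 2478 (-0.46 ± 0.034, adjusted p 3.09e-19). The RNAs these factors act on went the other way: of the 13 mitochondrially encoded protein genes, 11 were raised and 2 lowered (median 0.42). MT-ND2, a subunit of complex I, had 41989, 42376 and 42419 normalized reads in control and 64002, 65102 and 63438 in RBP4 libraries (0.60 ± 0.017, adjusted p 1.43e-41). MT-ND5 and MT-ND6 were the 2 lowered genes (-0.09 each), and with total-read scaling neither was past the threshold (adjusted p 0.278 and 0.628). MT-ND6 also missed it without control library 3 (adjusted p 0.141), RBP4 library 1 (0.19) or RBP4 library 2 (0.0714), and it is encoded on the other strand, which these libraries do not mark. In the same libraries, then, 44 of 77 ribosomal protein genes were lowered and 11 of the 13 genes whose messages that ribosome translates were raised. Messenger RNA was captured on poly-T beads, so these reads also depend on how well the tail of a message is captured. The part of capture was not tested.

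**Figure D5:**
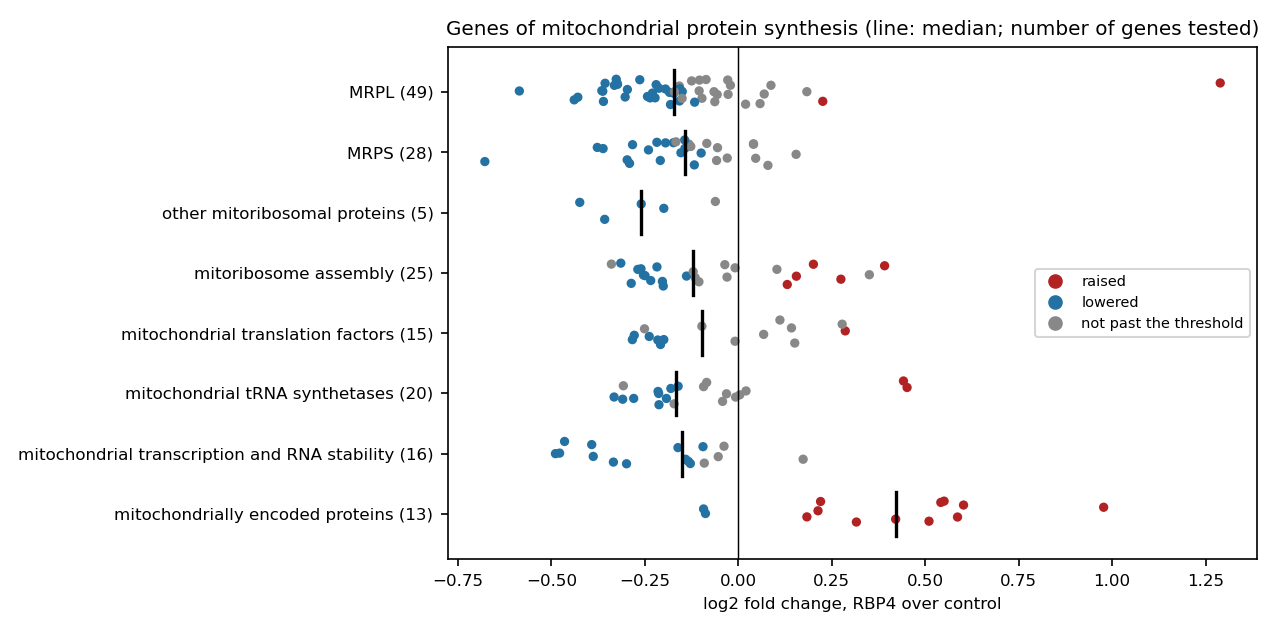
Log2 fold change, RBP4 over control, of each tested gene in 8 lists of mitochondrial protein synthesis, with the number of genes tested in parentheses and the median as a vertical line. Blue points were lowered, red points raised and grey points not past the threshold. The medians of the nuclear-encoded lists lie between -0.26 and -0.10, and that of the mitochondrially encoded proteins at 0.42.

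In the authors' deposited table, 22 MRPL genes (2 raised, 20 lowered) and 11 MRPS genes (all lowered) were past an adjusted p of 0.05. Of all its genes, 9.48% were raised and 11.1% lowered. These shares are over 28846 genes, many of them too low to be among the 15676 tested here. They therefore cannot be set beside the 26.1% lowered in the main fit. A further 13 genes passed here but not there, among them MRPL40, MRPL46 and MRPS11, and no gene passed there but not here. The direction of the fold change differed for 0 of the called genes. Both comparisons use the same 6 libraries, so like directions are no separate support. DESeq2 on recovered reads gave the same counts over all genes as the deposited comparison, 2734 raised and 3197 lowered.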

How the data were processed

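Per the labels' protocols, messenger RNA was captured on poly-T beads and a NEBNext Ultra kit, which does not keep the strand, was used. For the aligner and read counter, the sources used here give none. The table that the authors deposited holds, for each gene, a normalized signal in every library. Each signal was a whole multiple of 1 step per library, within 0.01 reads, as for read counts divided by a size factor, and reads recovered this way served for depth and the alternative tests. The authors also deposited log2 fold changes and adjusted p-values of their own comparison, per the file headers. All 28847 genes had the start and end of GENCODE release 29 (GRCh38), and 0 per-sample columns were left unused.

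Genes that reached 10 in 3 or more libraries were tested with limma-trend, robustly moderated, on log2(value + 1), over all 6 libraries without covariates (R 4.3.3, limma 3.58.1). Fold changes on this scale understate those of low genes. P-values were two-sided and adjusted by the Benjamini-Hochberg method over all 15676 genes tested, at a threshold of 0.05. Called genes are termed lowered or raised. The script was tested on simulated data. Alternatives changed the pseudocount (0.5, 5), the filter (none, 50), the scaling, moderation, gene set and replicates, or used edgeR 4.0.16 and DESeq2 1.42.0 on recovered reads. With 3 libraries a group, precision is limited by the spread between libraries.

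The genes and the gene lists were chosen with earlier results of these data known. Named in each subunit were up to 5 most raised and 5 most lowered genes past the threshold without overlap, the 2 highest and the lowest per kilobase, those not tested, those of the stalk, tunnel, protuberance and S18 lists, those with a structural note, and up to 4 whose call changed without 1 library. In other lists, up to 3 genes each way with the smallest p could be named, of which the text gives some. MRPL17 is shown for its promoter only. Promoters are RefSeq's.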

Additional observations from a re-analysis of the deposited data

How the results depend on the processing

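With at least 50 normalized reads required, 1 MRPL gene was raised, since MRPL53 was no longer tested. With libraries scaled to total reads, 4 MRPL genes (MRPL1, MRPL10, MRPL53 and MRPL58) and 1 MRPS gene (MRPS33) were raised and 9 MRPS genes lowered, the medians were -0.103 (MRPL) and -0.0747 (MRPS), and raised genes made up 61.7% of all calls in place of 48.4%. The large to small ratio of RBP4 over control was 1.04 with medians over genes, which turned its direction, and 0.99 with the subunits set by structure. The cause was not tested. TMM scaling, both pseudocounts and edgeR moved no count of lowered genes by more than 1, and DESeq2 gave 20 MRPL and 11 MRPS lowered genes. Of the values of single named genes, 1063 kept their side of the threshold, 38 lost it and 3 passed it newly (MRPL1 under 2 settings and MRPL10). In 0 cases did the direction change where either fit passed the threshold. A change of direction with neither fit past it was counted as kept. With total-read scaling this held for MRPL12 (0.041), MRPL22 (0.012), DAP3 (0.0071) and MRPS36 (0.013), whose fold changes were negative in the main fit.

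Leaving out 1 library at a time gave 7044 to 7521 calls over all genes, 24 to 29 MRPL and 14 to 17 MRPS genes lowered, 1 to 3 MRPL genes raised, medians of -0.194 to -0.142 and -0.151 to -0.134, and a ratio of 0.975 to 0.987. The single MRPL call left came without RBP4 library 2. Of the 46 called genes, 14 lost their call without some library. MRPL43 lost it without any of 4 libraries (adjusted p of up to 0.347), and MRPL39, MRPL46 and MRPS16 without RBP4 library 1 and another.

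Replicate numbers are shared by the groups' titles. Same-numbered libraries did not deviate together (correlations of 0.00365, -0.0079 and -0.0169), so the numbers were not taken to pair them. A replicate block gave 7829 calls over all genes, 27 MRPL and 16 MRPS genes lowered and the same medians. MRPS24, MRPL53 and MRPS28 had few reads in these libraries, which limits what their values show. Each also shares exon bases with another annotated gene on the same strand.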
